A study of Mus musculus with 15 samples.

Results

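The genes of cholesterol and fatty acid synthesis were followed in mouse B cells before and after ex vivo activation, and in activated cells cultured with or without GSK-J4. The set held 34 genes, chosen by symbol from the 21761 genes of the expression table: 5 regulators of the SREBP pathway, 19 genes of sterol synthesis and 10 of fatty acid synthesis and desaturation. Every member was in the table, and all 34 were among the 10866 genes tested, those that reached 1 RPKM in 3 libraries or more. The 15 libraries, made from poly(A) RNA, fell into 5 groups of 3 and came from splenic CD43- B cells of female wild-type C57BL/6J mice whose age is not given in the labels. For 4 groups the cells had been cultured for 3 days with LPS, IL-2 and IL-5 and then magnetically enriched: CD138+ cells with 250 nM GSK-J4, CD138+ cells with DMSO, GL7+ cells with 250 nM GSK-J4 and GL7+ cells with DMSO. The fifth group, called naive, held CD43- cells with no stimulation and no drug. GSK-J4 is a cell-permeable inhibitor of the demethylases KDM6A and KDM6B, which remove the repressive histone mark H3K27me3. CD138 (syndecan-1) marks plasmablasts, and GL7 marks activated and germinal centre B cells. A 3-day culture with LPS holds cells at many stages, and magnetic enrichment leaves some cells of the other fraction.

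SREBP transcription factors are made as precursors in the membrane of the endoplasmic reticulum, where SCAP escorts them to the Golgi for cleavage when sterols are scarce, and INSIG proteins hold the complex back when sterols are plentiful. The released factors switch on the enzymes that turn acetyl-CoA into cholesterol, chiefly through SREBP-2, and into fatty acids, chiefly through SREBP-1. Dividing lymphocytes need both products for new membrane, and plasmablasts also enlarge their endoplasmic reticulum to secrete antibody.

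Depth was 6241345 to 7712387 reads in CD138+ GSK-J4, 9677646 to 11631126 in CD138+ DMSO, 9174755 to 12212249 in GL7+ GSK-J4, 9805331 to 11519775 in GL7+ DMSO and 1318002 to 13189095 in naive libraries. The shallowest was naive replicate 2, where a gene of median length at 1 RPKM rested on 3.56 reads. The marker of the CD138+ fraction followed the labels. Sdc1, which encodes CD138, stood at 34.5 to 44.9 RPKM in CD138+ GSK-J4 and 30.5 to 35.3 in CD138+ DMSO libraries. It stood at 2.33 to 3.30 in GL7+ GSK-J4, 1.26 to 1.54 in GL7+ DMSO and 2.01 to 4.72 in naive libraries. The GL7+ fraction was not checked by a marker of its own. Cd79a, of the B cell receptor, was at 428 RPKM or more in every library. The naive libraries also held markers of other cells: 7 myeloid markers summed to 1.46 to 4.32 RPKM over the cultured libraries and 58.7 to 95.5 in naive ones, and 6 T cell markers to 0.960 to 4.19 in cultured and 21.6 to 27.2 in naive ones. Cd3e was at 0 in every cultured library. A CD138+ GSK-J4 library numbered 4 matched its group in the labels and no single mouse. Levels below are RPKM, given per library in replicate order or as mean ± SD over n = 3, and log2 changes and adjusted p-values are from limma on log2(RPKM + 1), a scale that understates the change of low genes. A gene is called changed where the adjusted p is under 0.05.

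All members together took 0.816 ± 0.00148% of assigned reads in CD138+ GSK-J4, 0.897 ± 0.0147% in CD138+ DMSO, 0.942 ± 0.0158% in GL7+ GSK-J4, 1.08 ± 0.00721% in GL7+ DMSO and 0.399 ± 0.00571% in naive libraries. No 2 groups overlapped in this share, and GL7+ DMSO cells were highest. Sterol synthesis genes took 0.256 ± 0.00579%, 0.275 ± 0.000436%, 0.315 ± 0.00239% and 0.360 ± 0.00431% of reads in these 4 cultured groups and 0.0494 ± 0.00307% in naive cells. Fatty acid genes took 0.583 ± 0.00876% in GL7+ DMSO and 0.279 ± 0.0101% in naive cells, a smaller gap. Scd1 was high in naive cells too. Per length, the desaturase genes Scd1 and Scd2 and the farnesyl diphosphate synthase gene Fdps were the 3 highest members in each cultured group. In naive cells Scd1 led at 387 ± 24.4 RPKM, followed by Srebf2 at 63.2 ± 0.654 and Acly at 59.5 ± 5.66, which did not differ beyond their spread. The median over members was 30.3 RPKM in CD138+ GSK-J4, 32.7 in CD138+ DMSO, 38.1 in GL7+ GSK-J4, 45.8 in GL7+ DMSO and 9.40 in naive cells. Acss2, which makes acetyl-CoA from acetate, was the lowest member in each cultured group, at 0.988 to 2.13 RPKM.

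**Figure D1:**
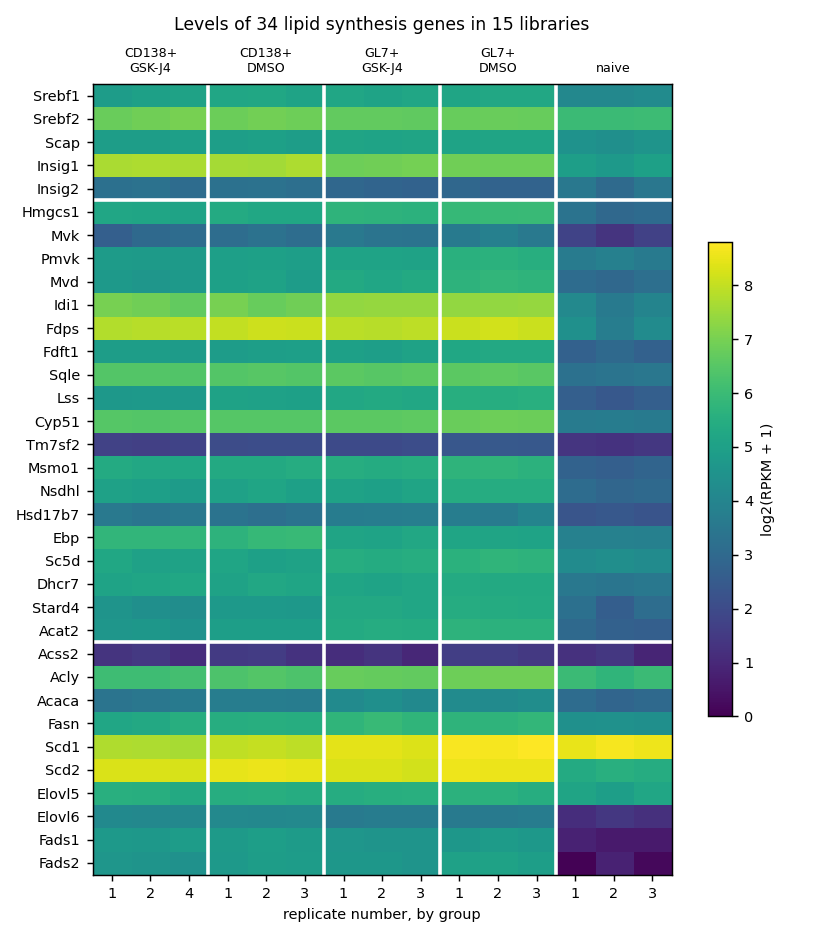
Level of each of the 34 genes (rows, with regulators, sterol synthesis and fatty acid synthesis divided by white lines) in each of 15 libraries (columns, by group and replicate number), as log2(RPKM + 1) on the colour scale. The naive columns are darker than the cultured columns for most rows, with Scd1 as bright in naive as in GL7+ cells and Fads2 and Fads1 darkest.

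Activated B cells carried far more sterol synthesis RNA than naive B cells. All 19 sterol genes were higher in CD138+ DMSO cells and in GL7+ DMSO cells, with median log2 changes of 2.05 in CD138+ and 2.48 in GL7+ cells, and so were most fatty acid genes. The exceptions were the regulator Insig2, lower in GL7+ cells, and the desaturase Scd1, lower in CD138+ cells. In CD138+ DMSO cells 31 of 34 members were higher and 1 was lower than in naive cells, where 39.9% of all tested genes were called higher and 43.5% lower (83.4% in all). In GL7+ DMSO cells 33 were higher and 1 lower, where 41.3% of tested genes were called higher and 40.3% lower (81.7% in all). The median log2 change over members was 1.79 in CD138+ and 2.02 in GL7+ cells, beside -0.05 in CD138+ and 0.01 in GL7+ cells over all tested genes. Both comparisons use the same 3 naive libraries. The naive libraries differed from the cultured ones in the markers of other cells as well, such as myeloid Lyz2 at 2.88 RPKM or less in cultured and 44.7 to 73.3 in naive libraries, and the part of other cells in these changes was not tested. In bulk RNA, a change in the share of cells that express a gene and a change in RNA per cell cannot be told apart.

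Among regulators, Srebf1, Srebf2, Scap and Insig1 rose in both fractions. Insig1, a retention factor that is itself an SREBP target, stood at 193, 188 and 207 RPKM in CD138+ DMSO and 117, 115 and 116 in GL7+ DMSO, against 29.2, 25.8 and 31.1 in naive cells. The 3 groups did not overlap, and the log2 change over naive was 2.73 in CD138+ cells (adjusted p = 5.6e-15) and 1.98 in GL7+ cells (2.4e-13). Insig2, the retention factor that is less dependent on SREBP, stood at 8.80, 9.0 and 8.30 in CD138+ DMSO and 6.66, 6.01 and 5.89 in GL7+ DMSO, against 10.5, 7.18 and 10.2 in naive cells. It fell in GL7+ cells, by 0.51 on the log2 scale (adjusted p = 0.00059), while in CD138+ cells it missed the threshold (-0.07, adjusted p = 0.55). Without the shallow naive replicate 2, Insig2 passed as lower in CD138+ cells too (-0.23, adjusted p = 0.013). The ratio of Insig1 to Insig2 was 22.6 ± 2.12 in CD138+ DMSO and 18.8 ± 1.11 in GL7+ DMSO, against 3.14 ± 0.416 in naive cells.

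Srebf2, which encodes SREBP-2, stood at 111, 120.3 and 115 RPKM in CD138+ DMSO and 107, 110.1 and 107 in GL7+ DMSO, against 63.6, 62.5 and 63.7 in naive cells (log2 change 0.86 and 0.76). Srebf1, which encodes the SREBP-1 isoforms, stood at 35.8, 36.4 and 33.5 in CD138+ DMSO and 35.3, 38.1 and 38.0 in GL7+ DMSO, against 16.1, 16.3 and 18.1 in naive cells (1.03 and 1.10). Both factor genes rose by less than the median sterol gene. Scap, the escort protein gene, was at 29.4, 31.4 and 29.0 in CD138+ DMSO and 33.0, 34.5 and 33.9 in GL7+ DMSO, against 21.5, 19.9 and 22.6 in naive cells (0.47 and 0.64). The table gives 1 value per gene, so the SREBP-1a and SREBP-1c transcripts of Srebf1 are not separated, and cleavage of the SREBP proteins was not measured.

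Sterol genes rose along the whole pathway, and Fdps, Idi1 and Sqle had the largest log2 changes among them in both fractions. Fdps, whose enzyme makes the farnesyl diphosphate shared by sterols, dolichol and protein prenylation, stood at 256, 280.4 and 270.3 RPKM in CD138+ DMSO and 272, 294 and 269 in GL7+ DMSO, against 20.2, 12.4 and 17.9 in naive cells. Its log2 change was 3.95 in CD138+ cells (adjusted p = 1.4e-13) and 3.99 in GL7+ cells (2e-13). Idi1, isopentenyl diphosphate isomerase, stood at 126, 108 and 116 in CD138+ DMSO and 167, 166 and 168 in GL7+ DMSO, against 16.5, 11.4 and 14.8 in naive cells (2.96 and 3.48). Sqle, the epoxidase that commits squalene to sterols, stood at 85.1, 89.9 and 86.4 in CD138+ DMSO and 95.4, 96.3 and 92.4 in GL7+ DMSO, against 8.77, 9.39 and 10.3 in naive cells (3.07 and 3.19). No library of a cultured group overlapped the naive range for any of these 3 genes.

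The other sterol genes gave the same direction with smaller or similar changes. In CD138+ and GL7+ cells, in that order, the lanosterol demethylase gene Cyp51 had log2 changes of 2.83 and 3.18, the sterol oxidase gene Msmo1 2.64 and 2.96, and the lanosterol synthase gene Lss 2.45 and 2.93. Hmgcs1, the HMG-CoA synthase at the entry of the pathway, changed by 2.16 in CD138+ and 2.79 in GL7+ cells, and Acat2, the thiolase that supplies its substrate, by 2.12 and 2.85. The kinases of mevalonate changed less, Mvk by 1.60 and 2.06 and Pmvk by 1.25 and 1.86, and Mvd, the decarboxylase after them, by 1.88 and 2.63. Squalene synthase (Fdft1) changed by 2.11 and 2.48, the dehydrogenase gene Nsdhl by 2.05 and 2.44, the sterol carrier gene Stard4 by 1.71 and 2.41, and Dhcr7, the last reductase, by 1.68 and 1.86. Smaller rises were those of the sterol reductase gene Tm7sf2 (0.71 and 1.06), Hsd17b7 (0.96 and 1.44) and the sterol desaturase gene Sc5d (0.81 and 1.42). The isomerase gene Ebp rose by 2.00 in CD138+ and 1.28 in GL7+ cells. Ebp was the sterol gene with the larger value in CD138+ cells, a difference tested below.

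**Figure D2:**
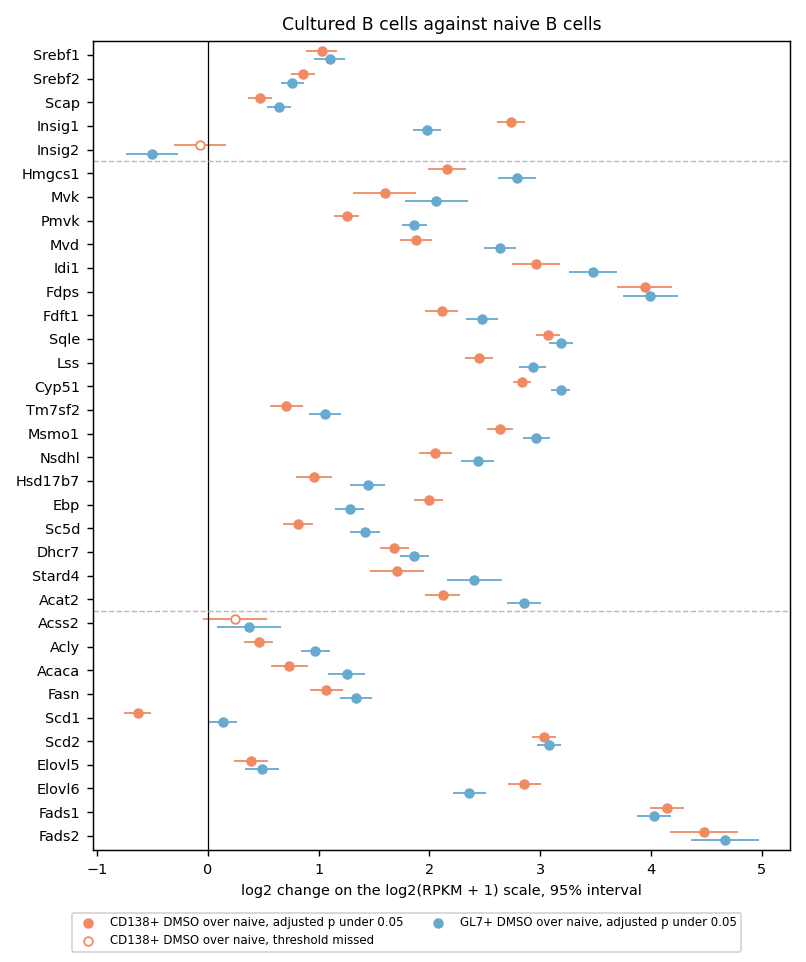
Log2 change over naive cells on the log2(RPKM + 1) scale, with 95% intervals, for each of 34 genes in CD138+ DMSO (orange) and GL7+ DMSO cells (blue), with filled points where the adjusted p was under 0.05. Sterol genes, between the dashed lines, all lie right of 0, whereas Insig2 and Scd1 lie at or left of 0 in at least 1 fraction.

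Fatty acid genes split into those nearly silent in naive cells and those already on. Fads2, which starts the desaturation of essential fatty acids, stood at 26.1, 29.0 and 28.0 RPKM in CD138+ DMSO and 32.1, 32.7 and 29.8 in GL7+ DMSO, against 0.0400, 0.796 and 0.128 in naive cells. These naive values rest on 2, 4 and 3 reads, so no fold is given. Its neighbour in the same pathway, Fads1, stood at 26.7, 29.3 and 27.5 in CD138+ DMSO and 24.4, 27.5 and 24.9 in GL7+ DMSO, against 0.781, 0.558 and 0.556 in naive cells, from 42, 3 and 14 reads. Both passed the test in both fractions (Fads2 adjusted p = 3.6e-13 in CD138+ and 3.6e-13 in GL7+, Fads1 5.4e-16 and 1e-15). Elovl6, which elongates saturated and monounsaturated chains, had log2 changes of 2.86 in CD138+ and 2.36 in GL7+ cells.

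The desaturase paralogs Scd1 and Scd2, which make monounsaturated fatty acids, parted. Scd2 stood at 355, 372 and 357 RPKM in CD138+ DMSO and 378, 371 and 369 in GL7+ DMSO, against 40.3, 46.4 and 43.0 in naive cells (log2 change 3.04, adjusted p = 4.5e-16, and 3.08, adjusted p = 4.6e-16). Scd1 stood at 246, 259 and 242 in CD138+ DMSO and 422, 409 and 444 in GL7+ DMSO, against 364, 413 and 383 in naive cells. It fell by 0.63 on the log2 scale in CD138+ cells (adjusted p = 6.8e-08). In GL7+ cells Scd1 overlapped naive cells and barely passed (0.14, adjusted p = 0.039), and quantile normalization turned this value to -0.04 (adjusted p = 0.45). That call was also lost after TMM scaling (0.23), with no filter on low genes (0.053), with only the compared groups (0.13), without GL7+ DMSO replicate 1 (0.067) or 3 (0.15) and without naive replicate 1 (0.13) or 3 (0.078). The ratio of Scd2 to Scd1 was 1.45 ± 0.0227 in CD138+ DMSO and 0.877 ± 0.0414 in GL7+ DMSO, against 0.112 ± 0.000990 in naive cells. Reads of near-identical stretches could be split between these paralogs by the authors' counting, which makes their absolute levels uncertain.

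The enzymes that feed and build the fatty acid chain rose less. Fasn, fatty acid synthase, changed by 1.07 in CD138+ and 1.34 in GL7+ cells, Acaca, acetyl-CoA carboxylase, by 0.73 and 1.25, and Acly, which makes cytosolic acetyl-CoA from citrate, by 0.46 and 0.97. Elovl5, an elongase of polyunsaturated chains, changed by 0.39 and 0.49. Acss2 missed the threshold in CD138+ cells (0.24, adjusted p = 0.11) and passed in GL7+ cells (0.37, adjusted p = 0.021). Acss2 lost the call in GL7+ cells without GL7+ DMSO replicate 1 (0.062) or 2 (0.065) or naive replicate 3 (0.12), and gained one in CD138+ cells without naive replicate 2 (0.36, adjusted p = 0.022).

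Promoters are shown for members that rose together. RefSeq promoter windows (GRCm38.p6, 250 bases before to 50 after the start) were matched for 27 of the 34 members, and not for Fdps, Fdft1, Sqle, Stard4, Scd1, Scd2 and Fads1. Upstream bases follow, 5′ to 3′ on the strand of the gene, for the 4 matched members with the largest rise in GL7+ cells and for Hmgcs1, which was added after its match was seen. Capitals mark TCACNCCAC (a form of the sterol regulatory element bound by SREBPs), CCAAT (bound by NF-Y) or GGGCGG (the GC box bound by Sp1), read on either strand. Positions are those of the RefSeq table, not of the expression files.
Fads2 (chr19:10101504-10101753, minus strand): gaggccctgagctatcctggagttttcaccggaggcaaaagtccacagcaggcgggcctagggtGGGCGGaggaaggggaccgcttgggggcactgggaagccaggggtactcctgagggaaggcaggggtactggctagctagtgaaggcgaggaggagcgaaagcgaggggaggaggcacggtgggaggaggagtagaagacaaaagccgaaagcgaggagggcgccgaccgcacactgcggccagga
Idi1 (chr13:8885356-8885605, plus strand): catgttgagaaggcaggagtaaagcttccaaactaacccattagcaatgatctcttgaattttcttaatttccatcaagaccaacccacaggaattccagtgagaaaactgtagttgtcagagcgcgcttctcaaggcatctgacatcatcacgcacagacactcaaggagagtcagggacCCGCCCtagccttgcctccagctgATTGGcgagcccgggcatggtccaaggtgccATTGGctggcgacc
Cyp51 (chr5:4104698-4104947, minus strand): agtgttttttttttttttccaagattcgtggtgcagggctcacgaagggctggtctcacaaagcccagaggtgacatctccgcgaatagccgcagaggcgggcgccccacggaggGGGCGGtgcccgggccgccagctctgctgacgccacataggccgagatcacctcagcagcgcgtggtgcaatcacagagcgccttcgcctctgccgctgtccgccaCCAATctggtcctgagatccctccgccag
Msmo1 (chr8:64733579-64733828, minus strand): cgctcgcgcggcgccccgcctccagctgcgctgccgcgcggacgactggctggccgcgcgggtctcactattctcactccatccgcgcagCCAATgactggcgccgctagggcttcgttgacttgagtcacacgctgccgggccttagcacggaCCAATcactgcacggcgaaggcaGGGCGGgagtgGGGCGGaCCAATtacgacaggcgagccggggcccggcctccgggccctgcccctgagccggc
Hmgcs1 (chr13:119690101-119690350, plus strand): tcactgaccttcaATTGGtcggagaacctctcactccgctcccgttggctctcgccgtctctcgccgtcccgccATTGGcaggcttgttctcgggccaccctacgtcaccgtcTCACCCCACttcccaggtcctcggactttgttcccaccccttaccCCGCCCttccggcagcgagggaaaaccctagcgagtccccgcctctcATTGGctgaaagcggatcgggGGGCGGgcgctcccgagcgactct
Hmgcs1 was the only matched member with TCACNCCAC in its promoter window, as TCACCCCAC with its first base 137 bases before the start, and 1.36% of the 8243 tested genes with a promoter held that motif. CCAAT occurred in 22 of 27 members (81.5%) and in 43.6% of tested genes, and GGGCGG in 22 of 27 (81.5%) and in 69.7%. The motif ATCACGTGA, an E-box form bound by SREBPs, occurred in 0 of 27 members and 0.776% of tested genes. Matches were searched on both strands and did not overlap another of these motifs in the printed stretches. They describe letters in these windows, not sites shown to be bound.

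Within the cultured cells, CD138+ cells carried less sterol synthesis RNA than GL7+ cells but more Insig1. With DMSO, 16 of 19 sterol genes were lower in CD138+ than in GL7+ cells and Ebp alone was higher. With GSK-J4, 13 sterol genes were lower and Ebp was again higher. Over all members, 4 were higher and 21 lower with DMSO, where 21.8% of tested genes were called higher and 36.9% lower (58.7% in all). With GSK-J4, 6 were higher and 19 lower, where 24.0% of tested genes were called higher and 39.0% lower (63.0% in all). The median log2 change over members was -0.34 with DMSO and -0.17 with GSK-J4, and over all tested genes it was -0.10 in both. TMM scaling moved the median of all genes to -0.01 with DMSO and to 0.00 with GSK-J4. It left 6 members higher and 18 lower with DMSO (median -0.22), and 7 higher and 14 lower with GSK-J4 (median -0.04), and it moved the share of higher calls over all genes to 51.4% with DMSO and 51.3% with GSK-J4, beside 37.2% and 38.1% unscaled. Beside these differences, 6 plasmablast markers summed to 2863 to 3076 RPKM in CD138+ DMSO and 598.5 to 659.5 in GL7+ DMSO cells, and 6 B cell markers to 920.4 to 986 in CD138+ DMSO and 1394 to 1443 in GL7+ DMSO cells, and their part in the lipid gene differences was not tested.

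Among regulators, both Insig genes were higher in CD138+ cells in both media. Insig1, at the DMSO values given above, had a log2 change of 0.75 (95% interval 0.63 to 0.88, adjusted p = 6.5e-08). With GSK-J4 it stood at 206, 208 and 205 RPKM in CD138+ cells and 115, 116 and 123 in GL7+ cells (0.80, adjusted p = 2.6e-08). Insig2 had a log2 change of 0.43 with DMSO (adjusted p = 0.0033) and, with GSK-J4, stood at 8.49, 8.88 and 7.71 in CD138+ and 6.72, 6.09 and 5.81 in GL7+ cells (0.38, adjusted p = 0.0076). Neither gene's fractions overlapped in either medium. Srebf2 with GSK-J4 stood at 109, 118 and 126 in CD138+ and 102, 102 and 98.3 in GL7+ cells (0.22, adjusted p = 0.0012), and with DMSO its change was 0.10 (adjusted p = 0.11, but 0.0029 after TMM scaling). Quantile normalization also gave Srebf2 a call with DMSO (0.034). Scap with GSK-J4 stood at 28.5, 29.0 and 30.4 in CD138+ and 34.1, 33.8 and 33.8 in GL7+ cells, and its changes of -0.21 with GSK-J4 and -0.17 with DMSO passed the test but not after TMM scaling (0.22 and 0.4), and with DMSO not after quantile normalization (0.074). Srebf1 with GSK-J4 stood at 28.0, 31.2 and 32.9 in CD138+ and 35.7, 33.2 and 35.7 in GL7+ cells, a change of -0.18 (adjusted p = 0.024) that was lost after TMM scaling (0.53) and quantile normalization (0.22), without CD138+ GSK-J4 replicate 1 (0.13) or GL7+ GSK-J4 replicate 1 or 3 (0.075 each).

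Of the sterol genes lower in CD138+ cells, Mvd, Acat2, Stard4 and Hmgcs1 had the largest differences with DMSO. With GSK-J4 the largest were those of Stard4 and Acat2. Mvd with DMSO stood at 31.2, 32.2 and 28.4 RPKM in CD138+ and 50.8, 54.8 and 51.5 in GL7+ cells (log2 change -0.76, adjusted p = 2.4e-07). Acat2 with DMSO stood at 29.9, 29.3 and 29.5 in CD138+ and 50.8, 49.5 and 49.2 in GL7+ cells (-0.73), and with GSK-J4 at 23.7, 24.00 and 21.3 in CD138+ and 40.7, 43.0 and 41.3 in GL7+ cells (-0.83). Reads of Acat2 may be shared with its close copy Acat3, so its level is uncertain. Stard4, whose protein carries cholesterol between membranes, stood at 25.3, 25.3 and 25.1 in CD138+ DMSO and 42.4, 41.3 and 41.0 in GL7+ DMSO cells (-0.70), and at 22.7, 19.6 and 19.0 in CD138+ and 38.4, 39.1 and 36.0 in GL7+ cells with GSK-J4 (-0.86). Hmgcs1 with DMSO stood at 40.5, 36.9 and 36.9 in CD138+ and 58.4, 59.5 and 61.0 in GL7+ cells (-0.63). The fractions did not overlap for any of these 4 genes. Ebp went the other way, at 51.2, 59.0 and 60.5 in CD138+ DMSO and 35.3, 34.03 and 33.3 in GL7+ DMSO cells (0.71, adjusted p = 1.7e-07), and at 53.9, 54.4 and 54.3 in CD138+ and 34.2, 33.4 and 37.9 in GL7+ cells with GSK-J4 (0.61, adjusted p = 6.5e-07). Its isomerase acts on a late sterol intermediate.

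Fdps and Sqle did not pass the test between fractions. Fdps had a log2 change of -0.05 with DMSO (95% interval -0.30 to 0.20) and -0.05 with GSK-J4 (-0.29 to 0.20), and Sqle of -0.12 in each medium (adjusted p = 0.74, 0.75, 0.056 and 0.053). Sqle passed as lower in both media without any 1 of the 3 naive libraries (0.021 to 0.047). Mvk, Pmvk, Idi1, Lss and Tm7sf2 were lower in both media, at -0.61 to -0.35 with DMSO and -0.57 to -0.29 with GSK-J4. Fdft1 and Nsdhl were called lower with DMSO (-0.37 and -0.38) and missed the threshold with GSK-J4 (-0.13 and -0.13). Of the late steps other than Ebp, those lower with DMSO ran from -0.61 for Sc5d and -0.49 for Hsd17b7 to -0.18 for Dhcr7, whose call was lost after TMM scaling (0.39) or quantile normalization (0.075) and without CD138+ DMSO replicate 1 (0.1) or GL7+ DMSO replicate 1 (0.065). With GSK-J4 the weakest calls were Cyp51 (-0.13), Msmo1 (-0.16) and Hsd17b7 (-0.23). TMM scaling turned Cyp51 to 0.01 (adjusted p = 0.92) and ended the calls of Msmo1 (0.64) and Hsd17b7 (0.25), and quantile normalization ended all 3 calls (0.059 for Cyp51, 0.17 for each of the other two). Msmo1 lost its call there without CD138+ GSK-J4 replicate 2 (0.063) or 4 (0.076) or GL7+ GSK-J4 replicate 1 (0.069) or 3 (0.053), and with the mouse as a block (0.11). Hsd17b7 lost it without CD138+ GSK-J4 replicate 2 (0.067) or GL7+ GSK-J4 replicate 3 (0.053), and with the block (0.052).

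Fatty acid genes did not all go the same way between fractions. Scd1, at the DMSO levels given above, had a log2 change of -0.77 in CD138+ over GL7+ cells (adjusted p = 4e-08), and with GSK-J4 it stood at 216, 209.9 and 198 RPKM in CD138+ and 344, 344 and 319 in GL7+ cells (-0.69, adjusted p = 9.7e-08). Scd2 had a log2 change of -0.04 with DMSO (95% interval -0.15 to 0.06, adjusted p = 0.48) and of 0.01 with GSK-J4 (-0.10 to 0.12, adjusted p = 0.84, but 0.15 and 0.034 after TMM scaling). The ratio of Scd2 to Scd1 was 1.49 ± 0.0534 in CD138+ and 0.917 ± 0.00362 in GL7+ cells with GSK-J4. Acly with GSK-J4 stood at 65.3, 66.6 and 70.4 in CD138+ and 106, 105 and 103 in GL7+ cells (-0.63), and Acaca at 9.40, 10.2 and 11.3 in CD138+ and 17.7, 19.97 and 17.1 in GL7+ cells (-0.77). With DMSO these 2 genes changed by -0.51 and -0.52, and Fasn by -0.27 with DMSO and -0.47 with GSK-J4. Acly, Acaca and Fasn were lower in CD138+ cells in both media, although Fasn missed the threshold with DMSO after TMM scaling (0.1). Acss2 did not pass in either medium (-0.13 with DMSO, adjusted p = 0.44, and 0.17 with GSK-J4, adjusted p = 0.3). Elovl5 (-0.10) and Fads2 (-0.18) missed the threshold with DMSO (adjusted p = 0.27 and 0.29). Elovl6 was higher, at 16.4, 16.3 and 16.8 in CD138+ DMSO and 10.9, 11.4 and 12.02 in GL7+ DMSO cells (0.50), and at 17.2, 16.3 and 16.4 in CD138+ and 11.2, 12.02 and 12.1 in GL7+ cells with GSK-J4 (0.46). Fads1 passed with GSK-J4 (0.19, adjusted p = 0.027) and lost the call without CD138+ GSK-J4 replicate 4 (0.12) or GL7+ GSK-J4 replicate 2 (0.069) or 3 (0.075), at a pseudocount of 0.1 (0.097) and with the mouse as a block (0.2). With DMSO Fads1 missed the threshold (0.12, adjusted p = 0.17) but passed as higher after TMM scaling (0.012) and quantile normalization (0.023).

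**Figure D3:**
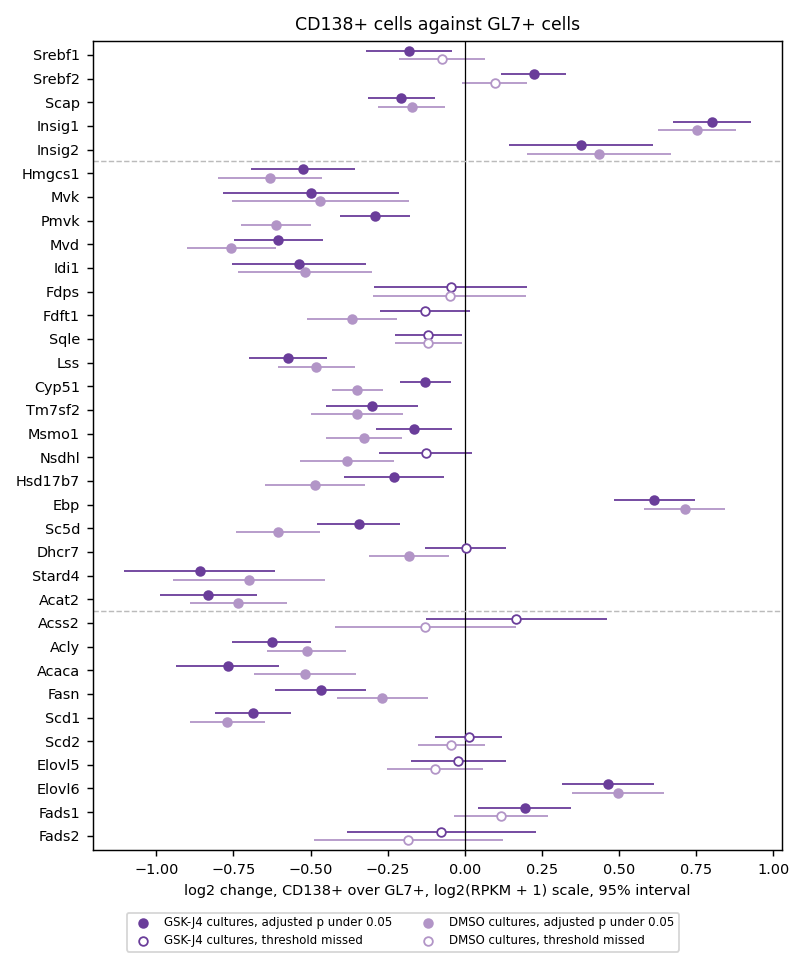
Log2 change of CD138+ over GL7+ cells on the log2(RPKM + 1) scale, with 95% intervals, in GSK-J4 cultures (dark) and DMSO cultures (light), with filled points where the adjusted p was under 0.05. Most sterol genes lie left of 0 in both media, while Insig1, Insig2, Ebp and Elovl6 lie right of it.

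Part of the sterol and desaturase genes, and Acly in CD138+ cells, were lower with GSK-J4 by modest amounts, with log2 changes between -0.48 and -0.21, and no member was called higher. In CD138+ cells 7 of 34 members were lower with GSK-J4 than with DMSO and 0 higher, where 8.61% of tested genes were called lower and 4.61% higher (13.2% in all). In GL7+ cells 12 of 34 were lower and 0 higher, where 7.71% of tested genes were called lower and 5.81% higher (13.5% in all). No member was called higher by voom in either fraction, and 1 in CD138+ and 0 in GL7+ cells were higher at an unadjusted p under 0.05. The median log2 change over members was -0.12 in CD138+ and -0.20 in GL7+ cells, beside -0.03 and -0.01 over all tested genes. Lss, Mvd, Tm7sf2, Acat2, Scd1 and Scd2 were called lower in both fractions. How far the lower calls of the fractions overlap over all tested genes was not counted, so this overlap is not set apart from theirs. GSK-J4 cultures also differed in cell state markers: 6 B cell markers summed to 752 to 788 RPKM with GSK-J4 and 920.4 to 986 with DMSO in CD138+ cells, and to 1071 to 1201 with GSK-J4 and 1394 to 1443 with DMSO in GL7+ cells. Of these 6, 4 were called lower and 1 higher in CD138+ cells, and 2 lower and 1 higher in GL7+ cells. The 6 plasmablast markers summed to 3122 to 3300.0 with GSK-J4 and 2863 to 3076 with DMSO in CD138+ cells, and to 773 to 868 with GSK-J4 and 598.5 to 659.5 with DMSO in GL7+ cells. Singly, 0 of the 6 plasmablast markers were called in CD138+ cells (log2 changes -0.07 to 0.29). In GL7+ cells 5 of them were called higher. The 5 dendritic cell markers summed to 5.496 to 7.12 with GSK-J4 and 9.77 to 11.2 with DMSO in CD138+ cells, and to 21.0 to 22.03 with GSK-J4 and 31.3 to 33.1 with DMSO in GL7+ cells. In each cultured group 4 of these 5 were under 1 RPKM in every library, so the sums rest mainly on 1 gene. Of 3 tested dendritic markers, 1 was called lower and 0 higher in each fraction. The part of all these markers in the lipid gene changes was not tested.

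No regulator was called in either fraction. Srebf1 stood at 28.0, 31.2 and 32.9 RPKM with GSK-J4 and 35.8, 36.4 and 33.5 with DMSO in CD138+ cells (-0.20, 95% interval -0.34 to -0.06, adjusted p = 0.06), with no overlap. It passed as lower without CD138+ GSK-J4 replicate 4 (0.039), naive replicate 2 (0.043) or naive replicate 3 (0.047), and with voom (0.027). In GL7+ cells Srebf1 stood at 35.7, 33.2 and 35.7 with GSK-J4 and 35.3, 38.1 and 38.0 with DMSO (-0.09, adjusted p = 0.41). Srebf2 had log2 changes of 0.03 in CD138+ cells (95% interval -0.08 to 0.13) and -0.10 in GL7+ cells (-0.21 to 0.01), Scap of -0.03 (-0.14 to 0.08) and 0.00 (-0.10 to 0.11), and Insig1 of 0.07 (-0.05 to 0.20) and 0.02 (-0.10 to 0.15). For Insig2 the intervals were -0.29 to 0.18 in CD138+ and -0.23 to 0.24 in GL7+ cells. For Srebf2, Scap and Insig1 the intervals of both fractions lie within 0.21 of 0 on the log2 scale.

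Of the genes up to the mevalonate steps, Pmvk, Mvd and Acat2 were called lower in at least 1 fraction. Pmvk, phosphomevalonate kinase, stood at 33.7, 33.2 and 32.9 RPKM with GSK-J4 and 46.4, 48.7 and 45.2 with DMSO in GL7+ cells, a log2 change of -0.48 (95% interval -0.59 to -0.36, adjusted p = 0.00017). In CD138+ cells it stood at 27.4, 27.1 and 26.6 with GSK-J4 and 30.2, 30.7 and 29.9 with DMSO (-0.16, adjusted p = 0.066), and passed there without naive replicate 2 (0.011) or 3 (0.049). The groups did not overlap in either fraction. Mvd stood at 39.3, 35.7 and 40.0 with GSK-J4 and 50.8, 54.8 and 51.5 with DMSO in GL7+ cells (-0.44, adjusted p = 0.001), and at 25.4, 23.8 and 25.4 with GSK-J4 and 31.2, 32.2 and 28.4 with DMSO in CD138+ cells (-0.29, adjusted p = 0.012). The CD138+ call of Mvd was lost without GSK-J4 replicate 2 (0.052) or DMSO replicate 2 (0.058). Acat2 stood at 23.7, 24.00 and 21.3 with GSK-J4 and 29.9, 29.3 and 29.5 with DMSO in CD138+ cells (-0.35, adjusted p = 0.0066). Its change in GL7+ cells (-0.25, adjusted p = 0.036) lost the call without any 1 of the 6 GL7+ libraries (0.069 to 0.11), at a pseudocount of 0.1 (0.055) and with no filter on low genes (0.059).

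Of the genes that build the sterol ring and trim it, Tm7sf2 and Lss were lower in both fractions. Tm7sf2, a reductase gene of low level, stood at 2.35, 2.15 and 2.40 RPKM with GSK-J4 and 3.15, 3.18 and 3.24 with DMSO in CD138+ cells (-0.34, adjusted p = 0.0049), and at 2.96, 2.96 and 3.27 with GSK-J4 and 4.20, 4.47 and 4.35 with DMSO in GL7+ cells (-0.39, adjusted p = 0.0025). Lss stood at 25.0, 25.9 and 25.7 with GSK-J4 and 32.3, 31.9 and 31.2 with DMSO in CD138+ cells (-0.31, adjusted p = 0.0036), and its GL7+ change (-0.21, adjusted p = 0.028) was lost without any 1 of the 6 GL7+ libraries (0.057 to 0.093). The groups did not overlap for either gene. Nsdhl stood at 32.9, 30.9 and 34.6 with GSK-J4 and 42.5, 42.9 and 42.4 with DMSO in GL7+ cells (-0.37, adjusted p = 0.004), against a change of -0.11 in CD138+ cells (adjusted p = 0.33). Cyp51 (-0.24), Fdft1 (-0.30), Msmo1 (-0.25) and Sc5d (-0.23) were also called lower in GL7+ cells. Without GL7+ GSK-J4 replicate 2 the calls of Fdft1 (0.056), Msmo1 (0.05) and Sc5d (0.098) were lost, and Sc5d also lost its call without GL7+ GSK-J4 replicate 1 (0.051) or 3 (0.056) or GL7+ DMSO replicate 2 (0.095) or 3 (0.073). Idi1, at -0.02 in CD138+ and 0.00 in GL7+ cells, and Sqle, at -0.03 in both, showed no difference beyond their spread, with intervals of -0.24 to 0.20 and -0.22 to 0.22 for Idi1 and -0.14 to 0.07 and -0.14 to 0.07 for Sqle. Fdps had log2 changes of -0.23 in CD138+ and -0.24 in GL7+ cells and missed the threshold in both (adjusted p = 0.21 and 0.2). It passed as lower in both without naive replicate 2 (0.008 and 0.0076) and with voom (0.005 and 0.0031). Fdps also passed in both with only the compared groups (0.019 and 0.015) and without the naive group (0.0042 in each). Hsd17b7 was the sterol gene with a positive value in CD138+ cells that missed the threshold by adjustment (0.20, adjusted p = 0.098).

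Both desaturase paralogs fell in both fractions. Scd1 stood at 344, 344 and 319 RPKM with GSK-J4 and 422, 409 and 444 with DMSO in GL7+ cells (-0.34, adjusted p = 0.002). In CD138+ cells Scd1 changed by -0.26 (adjusted p = 0.0091), a call lost with the mouse as a block (0.059). Scd2 stood at 311, 312 and 307 with GSK-J4 and 355, 372 and 357 with DMSO in CD138+ cells (-0.22, adjusted p = 0.011), and changed by -0.28 in GL7+ cells (adjusted p = 0.0032). The CD138+ call of Scd2 was lost without CD138+ DMSO replicate 2 (0.055). Acly stood at 65.3, 66.6 and 70.4 with GSK-J4 and 79.8, 85.8 and 80.2 with DMSO in CD138+ cells (-0.28, adjusted p = 0.0076), and its GL7+ change of -0.16 missed the threshold (adjusted p = 0.085). Fasn had log2 changes of -0.14 in CD138+ (95% interval -0.29 to 0.01) and 0.06 in GL7+ cells (-0.09 to 0.21), and Acaca of -0.23 (-0.40 to -0.07) and 0.02 (-0.15 to 0.18). In CD138+ cells Acaca and Fasn passed as lower without GSK-J4 replicate 4 (0.033 and 0.025), and Acaca without naive replicate 1 (0.048) or 2 (0.03). Acss2 and Fads2 had log2 changes of -0.43 and -0.41 in GL7+ cells that missed the threshold (adjusted p = 0.054 and 0.075).

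The remaining members, Mvk, Hmgcs1, Stard4, Ebp, Dhcr7, Elovl5, Elovl6 and Fads1, did not pass the test for GSK-J4 in either fraction. Their log2 changes ran from -0.29 to 0.01 in CD138+ and from -0.24 to 0.04 in GL7+ cells.

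**Figure D4:**
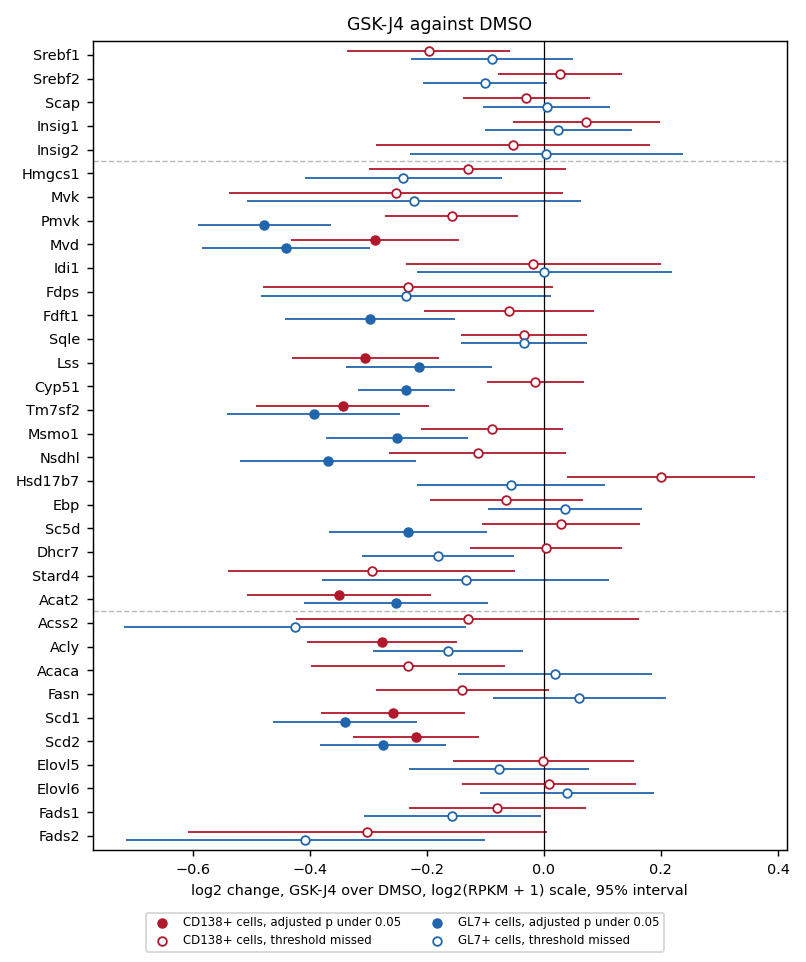
Log2 change of GSK-J4 over DMSO on the log2(RPKM + 1) scale, with 95% intervals, in CD138+ cells (red) and GL7+ cells (blue), with filled points where the adjusted p was under 0.05. Filled points all lie left of 0, and the regulators in the top block are all open.

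**Figure D5:**
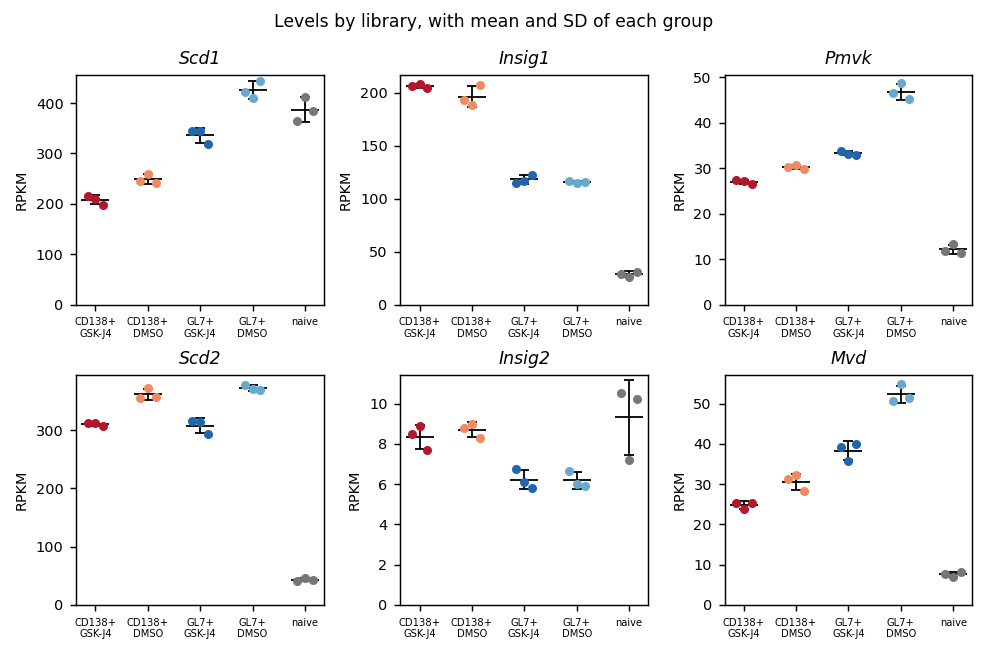
RPKM per library (points) with group mean and SD (black) for Scd1, Insig1, Pmvk, Scd2, Insig2 and Mvd in the 5 groups, with naive cells at the right. Scd2 is low in naive cells where Scd1 is high, and Pmvk and Mvd stand highest in GL7+ DMSO cells, above GL7+ GSK-J4.

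The number of members called depended on single libraries, as did the number of all tested genes called. Leaving out naive replicate 2, the shallow library, raised the lower calls to 13 in CD138+ and 18 in GL7+ cells, and leaving out GL7+ GSK-J4 replicate 2 left 7 in GL7+ cells. With a library left out, calls over all tested genes ran from 827 to 2201 in CD138+ cells, beside 1437 with all libraries. In GL7+ cells they ran from 743 to 2258, beside 1469. The 6 members added in CD138+ cells without naive replicate 2 were Srebf1, Pmvk, Fdps, Stard4, Acaca and Fads2, and those added in GL7+ cells were Hmgcs1, Fdps, Dhcr7, Acss2, Acly and Fads2.

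Whether GSK-J4 acted differently in the 2 fractions was tested as the difference of its effects, CD138+ minus GL7+. No member was called by limma (0 of 34), where 0.966% of tested genes were called. At an unadjusted p under 0.05 there were 8 members, and 2 were called by voom. The share of all tested genes at that unadjusted threshold was not counted. Voom also called more of all tested genes than limma, as given in the closing section, so these counts do not set the members apart. The nearest were Pmvk (0.32, 95% interval 0.16 to 0.48, adjusted p = 0.065) and Cyp51 (0.22, 95% interval 0.10 to 0.34, adjusted p = 0.081). Both values are positive, which here means a larger fall in GL7+ cells. Pmvk and Cyp51 passed without naive replicate 2 (0.0076 and 0.026) or naive replicate 3 (0.046 and 0.048), with voom (0.024 and 0.04), and in the fit of the 4 cultured groups alone (0.0084 and 0.012). For Scd1 and Scd2 the difference was 0.08 (-0.09 to 0.26) and 0.06 (-0.10 to 0.21), and for Mvd 0.15 (-0.05 to 0.36).

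Genes around the pathway were read from 7 further lists, counted without rescaling. Their counts stand beside the shares of all tested genes. Over naive cells these were 39.9% higher and 43.5% lower in CD138+ and 41.3% higher and 40.3% lower in GL7+ cells. In CD138+ over GL7+ cells 58.7% of all tested genes were called with DMSO and 63.0% with GSK-J4. For GSK-J4 against DMSO 13.2% were called in CD138+ and 13.5% in GL7+ cells. Of 9 tested genes of sterol export, LXR response and storage, 8 were lower and 1 higher over naive cells in each DMSO fraction, opposite in direction to sterol synthesis. Abca1, the cholesterol exporter, averaged 1.78 ± 0.170 RPKM in CD138+ DMSO and 1.02 ± 0.0248 in GL7+ DMSO, against 33.2 ± 4.55 in naive cells (log2 change -3.61 and -4.07). Mylip, the LXR target that degrades lipoprotein receptors, averaged 3.99 ± 0.433 in CD138+ DMSO and 73.5 ± 12.3 in naive cells (-3.89), and Cyp27a1, a sterol hydroxylase gene, 0.215 ± 0.233 in GL7+ DMSO and 21.4 ± 1.19 in naive cells (-4.22). Lpcat3, a phospholipid remodelling gene, was the member that rose (1.45 in CD138+ and 1.48 in GL7+). Myeloid markers moved with this list, at 1.46 to 4.32 summed RPKM in cultured and 58.7 to 95.5 in naive libraries, and their part was not tested. With GSK-J4 this list had 1 lower member in CD138+ cells, Abcg1 (-0.33, adjusted p = 0.017), and 2 in GL7+ cells, Mylip (-0.48, adjusted p = 0.018) and Lpcat3 (-0.17, adjusted p = 0.043). In CD138+ over GL7+ cells 3 were higher and 1 lower with DMSO, and 5 higher and 1 lower with GSK-J4.

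Of 12 tested genes of SREBP processing and turnover, 9 were higher and 2 lower in CD138+ than in GL7+ cells with DMSO, and 9 higher and 3 lower with GSK-J4, where 21.8% and 36.9% of all tested genes were higher and lower with DMSO and 24.0% and 39.0% with GSK-J4. Syvn1, a ubiquitin ligase of the endoplasmic reticulum, averaged 114 ± 4.80 RPKM in CD138+ DMSO and 62.2 ± 1.28 in GL7+ DMSO cells (0.87), and Fbxw7, which marks nuclear SREBPs for breakdown, 16.7 ± 0.709 in CD138+ and 9.68 ± 0.340 in GL7+ cells (0.73). Rnf145 (-0.39) and Erlin1 (-0.42) were lower there. Over naive cells the list had 7 higher and 5 lower in CD138+ and 4 higher and 5 lower in GL7+ DMSO cells, with Vcp, a segregase that extracts membrane proteins, at 1.93 and 1.57 and Rnf145 at -1.57 and -1.18. None of the 12 was called with GSK-J4 in either fraction, where 13.2% of all tested genes were called in CD138+ and 13.5% in GL7+ cells.

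Of 10 tested genes of lipoprotein uptake and lysosomal sterol transfer, 3 were higher and 7 lower in CD138+ DMSO and 2 higher and 7 lower in GL7+ DMSO than in naive cells. Of all tested genes 39.9% were higher and 43.5% lower in CD138+ DMSO, and 41.3% higher and 40.3% lower in GL7+ DMSO. Scarb1, a lipoprotein receptor gene, rose (1.24 in CD138+ and 1.81 in GL7+), as did Npc2, of lysosomal cholesterol release (1.90 and 0.93), and Gramd1a, a sterol transfer gene, fell (-1.73 and -1.44). Between CD138+ and GL7+ cells 3 were higher and 3 lower in each medium, where 58.7% of all tested genes were called with DMSO and 63.0% with GSK-J4, with Npc2 among the higher ones (0.97 with DMSO and 1.09 with GSK-J4). With GSK-J4 2 were lower in CD138+ cells, Gramd1a (-0.28) and Lipa (-0.20), and 3 in GL7+ cells, among them Osbpl5 (-0.54) and Gramd1a (-0.24). Of all tested genes 8.61% were called lower with GSK-J4 in CD138+ and 7.71% in GL7+ cells.

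The 14 genes of the isoprenoid branches, which use farnesyl diphosphate for other products, had 8 higher and 5 lower over naive cells in each DMSO fraction, where 83.4% of all tested genes were called in CD138+ and 81.7% in GL7+ cells. Dhdds, of dolichol synthesis, which serves protein glycosylation, averaged 50.3 ± 2.41 RPKM in CD138+ DMSO and 21.8 ± 0.679 in GL7+ DMSO, against 8.20 ± 0.766 in naive cells (2.48 and 1.31). It was higher in CD138+ than in GL7+ cells in both media (1.17 with DMSO and 1.09 with GSK-J4), where 3 were higher and 5 lower with DMSO and 2 higher and 5 lower with GSK-J4. Pdss1, of ubiquinone side chain synthesis, was lower in CD138+ than in GL7+ cells within the GSK-J4 cultures (-1.27). No gene of this list was called for GSK-J4 against DMSO, where 13.2% of all tested genes were called in CD138+ and 13.5% in GL7+ cells.

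Fatty acid elongation and activation genes rose with activation, 11 of 12 tested in each DMSO fraction with 1 lower, among them Acsl3, an acyl-CoA synthetase gene (2.29 in CD138+ and 2.22 in GL7+). Of all tested genes 39.9% were higher and 43.5% lower over naive cells in CD138+ DMSO, and 41.3% higher and 40.3% lower in GL7+ DMSO. Between fractions 3 were higher and 4 lower with DMSO and 4 higher and 5 lower with GSK-J4, with Tecr, the last reductase of elongation, higher in CD138+ cells (0.40 and 0.73). Of all tested genes 58.7% were called between fractions with DMSO and 63.0% with GSK-J4. For GSK-J4 against DMSO 1 of the 12 was called in each fraction, Hacd2 higher in CD138+ (0.26) and Tecr lower in GL7+ cells (-0.19). There 13.2% of all tested genes were called in CD138+ and 13.5% in GL7+ cells. Of 19 phospholipid and triglyceride genes, 9 were higher and 7 lower over naive cells in CD138+ and 8 higher and 7 lower in GL7+ DMSO cells, a share near that of all tested genes. Pcyt1a, which controls phosphatidylcholine synthesis, was higher in CD138+ than in GL7+ cells (0.74 with DMSO and 0.73 with GSK-J4), among 4 higher and 3 lower with DMSO and 4 higher and 4 lower with GSK-J4. With GSK-J4 1 of the 19 was lower in CD138+ cells, Pcyt2 (-0.23), and 3 in GL7+ cells, among them Agpat2 (-0.62) and Lpin1 (-0.40). Of 13 fatty acid oxidation genes, 8 were higher and 4 lower over naive cells in CD138+ and 9 higher and 1 lower in GL7+ DMSO cells. Cpt1a, which admits fatty acids to mitochondria, was lower in both, at 9.70 ± 0.846 RPKM in CD138+ DMSO and 7.15 ± 0.399 in GL7+ DMSO, against 22.6 ± 6.29 in naive cells. Between fractions 3 oxidation genes were higher and 2 lower with DMSO and 5 higher and 3 lower with GSK-J4. With GSK-J4 Acadl was called higher (0.21) and Hadhb lower (-0.18) in CD138+ cells, and none of the 13 was called in GL7+ cells.

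Some member values are less certain than their spread. In the GENCODE annotation of a later mouse build, exons of Acss2, Cyp51, Fdft1, Fdps, Hmgcs1, Lss, Srebf1 and Tm7sf2 overlap exons of another gene. For Fdps and Tm7sf2 the other gene lies on the same strand, where no strand setting of the counting could separate the reads. For the others it lies on the opposite strand. The strand setting of the counting is not given in the sources used here, so reads of these overlapping genes cannot be told apart either.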

How the data were processed

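The 34 member genes and the 7 further lists were chosen with earlier results of these data known. The authors deposited a table of RPKM values (reads scaled to gene length and library size) for 21761 genes. The submitters' processing notes name TopHat2 and mm9; no source used here gives the counter or its strand setting. Low RPKM values came out as whole reads (99.9% or more of the values worth at most 20 reads, within 0.1 read, in every library), which gave depth. RPKM of member genes were taken as deposited, log2(RPKM + 1) was computed, and limma 3.58.1 (R 4.3.3, trended empirical Bayes) fitted the means of 5 groups over all 15 libraries for the 10866 genes with at least 1 RPKM in 3 or more libraries, with Benjamini-Hochberg adjustment over them. The scripts were tested on simulated data. Alternatives were pseudocounts, no filter, TMM and quantile scaling, voom on recovered reads, only the compared groups, a mouse block and leaving out each library. The fit without the naive group was chosen after seeing the data. Replicate numbers are mice in the labels, and same-mouse cultured libraries deviated together with a median correlation of 0.09 (-0.03 to 0.19 over 15 pairs). For cultured libraries of different mice the median was -0.03 (-0.15 to 0.12 over 39 pairs). The fit of group means leaves the mouse out. Genes named in the further lists are called members with the smallest adjusted p in a comparison, up to 2 in each direction. Member values are given per library for regulators and for up to 5 called members with the largest change in each direction and comparison whose groups did not overlap, and otherwise as chosen after seeing the values. A B cell marker is not reported here and was left out of the summed B cell markers.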

Additional observations from a re-analysis of the deposited data

How the results depend on the processing

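Several calls of single members changed under the alternatives, and those named in the text are not all of them. Among those not named there, voom called Hmgcs1 (adjusted p = 0.0043, and so for the values that follow in parentheses), Dhcr7 (0.024), Acss2 (0.0016), Acly (0.021) and Fads2 (0.00034) lower with GSK-J4 in GL7+ cells, and Stard4 (0.0031) and Fads2 (0.0094) in CD138+ cells. Quantile normalization called Hmgcs1 lower in GL7+ cells (0.044). In CD138+ over GL7+ cells voom called Fads2 with DMSO (0.032) and Fdft1 with GSK-J4 (0.04) lower. The count of members called for GSK-J4 in CD138+ cells was 7, against 12 with voom, 11 with only the compared groups and 13 without the naive group. In GL7+ cells it was 12, against 18 under each of these 3. The difference of the GSK-J4 effect called 0 members, against 2 with voom, with only the compared groups and without the naive group. Leaving out each library in turn gave 5 to 13 members for GSK-J4 in CD138+ cells, 7 to 18 in GL7+ cells, 0 to 2 for their difference, 24 to 27 for CD138+ over GL7+ cells with DMSO, 21 to 27 with GSK-J4, and 32 to 34 over naive cells in each fraction. With the mouse as a replicate block the counts were 7 and 13 for GSK-J4 in CD138+ and GL7+ cells, 0 for their difference, 25 and 22 for CD138+ over GL7+ cells with DMSO and GSK-J4, and 33 and 34 for CD138+ and GL7+ over naive cells. The library numbered 4 has a block level of its own, so the blocked CD138+ GSK-J4 values rest on the other two libraries. The block added Fasn in CD138+ cells (0.032) and Acss2 in GL7+ cells (0.0074) as lower with GSK-J4, and Acss2 as higher in CD138+ over naive cells (0.016). Over all tested genes, GSK-J4 called 1437 in CD138+ cells (927 with the block, 2320.0 without the naive group, 827 to 2201 with a library left out), 1469 in GL7+ cells (2614 with voom, 2383 without the naive group, 743 to 2258) and 105 for the difference (53 with no filter, 32 with the block, 430.0 with voom, 418 without the naive group or with only the compared groups, 18 to 361). TMM and quantile scaling moved the share of higher calls for GSK-J4 in CD138+ cells to 49.4% and 46.7%, beside 34.9%. The cause was not tested. Among values called in the fit described above or under the alternative, those of 2 genes turned direction. These were Cyp51 in CD138+ over GL7+ cells with GSK-J4 (0.0059 with TMM scaling) and Scd1 in GL7+ over naive cells (-0.0376 with quantile normalization). Turns of values called in neither fit were not counted. Depth limits Fads1 and Fads2 in naive cells.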
